A study of Trichoderma reesei with 6 samples.

Results

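The genes described here encode parts of the early and late secretory pathway of *Trichoderma reesei*, a filamentous fungus used for cellulase production. They were chosen by name, as *bip1*, *pdi1*, *hac1* and *dpm1* for protein folding and glycosylation and *sar1*, *ypt1*, *snc1*, *sso1* and *sso2* for vesicle traffic. Of these 9 names, 8 were found among the 9113 genes of the table, 4 in each class, and no row was listed under *sso2*. The table lists *hac1* by its locus tag only, TRIREDRAFT_46902, and the name comes from the choice of genes. All 8 genes were above 0 FPKM (fragments on a gene divided by its length and by the library's total) in every library.

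The strain Δ*gul1* (dgul1 in the labels) is a single transformant of the uridine auxotroph QP4 in which the major part of *gul1*, a gene for a putative mRNA-binding protein, was replaced by the *pyrG* marker of *Aspergillus niger*. The reference strain QPP is QP4 with *pyrG* integrated at a random site, so that both strains share the *pyr4* deletion of QP4 and carry *pyrG*, at different places. Each strain was pregrown for 36 h in minimal medium with 2% glucose and moved to 1% cellulose at 30 °C for 48 h in 3 cultures, and mRNA of the whole mycelium was sequenced as 1 library per culture. In such bulk RNA, fewer cells that carry a transcript and less of it per cell cannot be told apart.

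In fungi, proteins destined for the medium enter the endoplasmic reticulum (ER) during synthesis, where chaperones and disulfide isomerases fold them and mannose chains are attached. Folded cargo leaves in COPII-coated vesicles, passes the Golgi and reaches the growing hyphal tip in secretory vesicles, which fuse with the plasma membrane when a SNARE protein of the vesicle pairs with SNARE proteins of the membrane. An overload of unfolded protein in the ER activates the unfolded protein response, in which the sensor Ire1 splices the mRNA of the transcription factor Hac1, and Hac1 in turn raises the transcription of folding genes.

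The libraries behaved as labelled for the deleted gene. The *gul1* transcript (TRIREDRAFT_77084) was at 0.979, 0.581 and 0.746 FPKM in the Δ*gul1* libraries and at 86.9, 82.4 and 79.9 FPKM in the QPP libraries. Between 17654286 and 20652886 fragments lay behind the Δ*gul1* libraries and between 18877793 and 21659230 behind the QPP libraries, as recovered from the FPKM. The FPKM as deposited carry a shift between the strains. In the 9006 genes tested, those with a value above 0 in any library, the median log2 fold change (Δ*gul1* over QPP) was 0.14 with the FPKM as deposited and 0.01 after division by median-of-ratios size factors, which were 1.05 to 1.07 in Δ*gul1* and 0.931 to 0.965 in QPP. The shift matters here because several of the differences of these 8 genes were of its size or smaller, so each gene is given on both scales. Levels are FPKM as deposited, and fold changes, standard errors (SE) and tests come from limma on log2 of the scaled FPKM plus 1, fitted to all 9006 genes. A gene is said to rise or fall where its Benjamini-Hochberg adjusted *p* over all genes was under 0.05. The pseudocount of 1 hardly affects genes of these levels.

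Of the 8 genes, 3 rose in Δ*gul1* (*snc1*, *ypt1* and *hac1*) and 0 fell by this limma test. Among all genes tested, 29.6% passed, of which 14.5% of all genes rose and 15.0% fell. At an unadjusted *p* under 0.05, 5 of the 8 passed, the 3 that rose, *sar1* and *sso1*, and so did 41.0% of all genes. None of the 8 passed the thresholds of the study's methods, an absolute log2 fold change above 1 with an unadjusted *p* under 0.05, which 3.95% of all genes passed, 1.87% as higher and 2.09% as lower in Δ*gul1*. The log2 fold changes of the 8 genes lay between −0.15 and 0.33, with a median of 0.13 against 0.01 over all genes. With the FPKM as deposited, 6 of the 8 rose and 0 fell in the same test, where 30.0% of all genes rose and 8.28% fell, and the median of the 8 genes was 0.29 against 0.14 over all genes. With upper quartile scaling, *sso1* fell.

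**Figure D1:**
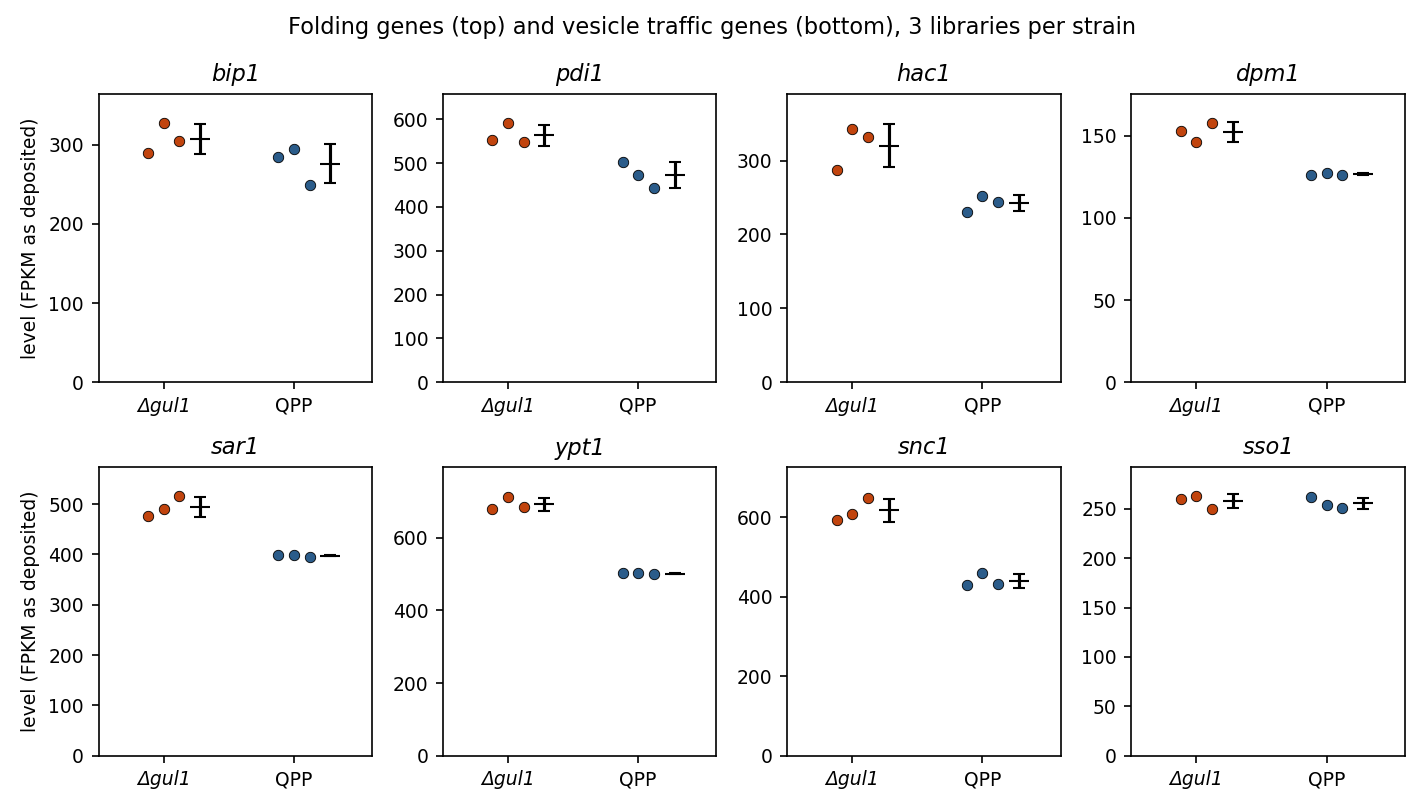
Level of each gene in each library, in FPKM as deposited, with Δ*gul1* left and QPP right in each panel. Points are the 3 libraries of a strain and the bar beside them is mean ± SD. The libraries of the strains overlap for *bip1* and *sso1* and are apart, higher in Δ*gul1*, for the other 6 genes. On this scale, which carries the shift between the strains, 40.0% of all genes are apart as higher and 11.8% as lower. After scaling, *pdi1* overlaps and *sso1* is apart as lower.

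The gene *bip1* (TRIREDRAFT_122920) encodes the Hsp70 chaperone of the ER lumen, which binds polypeptides as they enter. It lies from 512482 to 515161 on its scaffold in the QM6a assembly (v2.0), whose gene table does not name the scaffolds. Its level was 289, 328 and 305 FPKM in the Δ*gul1* libraries and 285, 295 and 249 FPKM in the QPP libraries. The strains overlapped, with QPP replicate 3 as the lowest library and Δ*gul1* replicate 2 as the highest. The mean was 307 ± 19.3 FPKM in Δ*gul1* and 276 ± 24.3 FPKM in QPP (SD, n = 3 each). The log2 fold change was −0.00 (limma adjusted *p* = 0.985, SE 0.0786), with a 95% interval from −0.19 to 0.18, so that a change of up to −12.0% or 13.3% is within this error. Its sign was not fixed by these data, since it was 0.16 with the FPKM as deposited (adjusted *p* = 0.162, limma).

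The gene *pdi1* (TRIREDRAFT_122415, from 434677 to 436583) encodes protein disulfide isomerase, which forms and rearranges the disulfide bonds of secreted proteins. It was the most abundant of the folding transcripts in both strains, at 553, 592 and 548 FPKM in Δ*gul1* and 504, 473 and 444 FPKM in QPP. Each Δ*gul1* library was above each QPP library as deposited, but after scaling 1 of the 3 Δ*gul1* libraries was above the highest QPP library. The scaled means were 533 ± 24.4 in Δ*gul1* and 500.1 ± 37.1 in QPP (SD, n = 3 each). The log2 fold change was 0.09 (SE 0.0723, 95% interval −0.07 to 0.26, adjusted *p* = 0.375 by limma). It was 0.25 with the FPKM as deposited (adjusted *p* = 0.0231, limma).

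The transcript of *hac1* (TRIREDRAFT_46902, from 546957 to 548582) was at 287, 342 and 331 FPKM in Δ*gul1* and at 231, 252 and 244 FPKM in QPP. The lowest Δ*gul1* library was above the highest QPP library, both as deposited and after scaling. The mean level was 320 ± 29.1 FPKM in Δ*gul1* and 242 ± 10.9 FPKM in QPP (SD, n = 3 each), and the log2 fold change was 0.24 (limma adjusted *p* = 0.0395, SE 0.0711), a scaled level 18.3% higher. With the FPKM as deposited the log2 fold change was 0.40 (adjusted *p* = 0.00571, limma). The call on the scaled values is near the threshold. It was kept without Δ*gul1* replicate 1, with a log2 fold change of 0.31, and lost without any other single library, with adjusted *p* from 0.0821 without QPP replicate 3 to 0.122 without Δ*gul1* replicate 3 and log2 fold changes from 0.19 to 0.25. It was also lost with upper quartile scaling, with quantile normalization and without a variance trend (limma adjusted *p* of 0.0605, 0.0690 and 0.0629). Each library has a single value for the gene, so spliced and unspliced *hac1* mRNA are not separated.

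The gene *dpm1* (TRIREDRAFT_74168, from 2260476 to 2261493) encodes dolichol phosphate mannose synthase, which makes the mannose donor for glycosylation in the ER lumen. It had the lowest level of the 8 genes, at 153, 146 and 158 FPKM in Δ*gul1* and 126, 127 and 126 FPKM in QPP. The strains did not overlap on either scale. The log2 fold change was 0.11 (SE 0.0495, 95% interval −0.01 to 0.22, adjusted *p* = 0.144 by limma), and 0.27 with the FPKM as deposited (adjusted *p* = 0.00571, limma).

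Among the traffic genes, *sar1* (TRIREDRAFT_61470, from 389249 to 390386) encodes the small GTPase that starts the assembly of the COPII coat at the ER. Its level was 477, 491 and 516 FPKM in Δ*gul1* and 399, 398 and 396 FPKM in QPP. All Δ*gul1* libraries were above all QPP libraries on both scales. The scaled level was 11.4% higher in Δ*gul1*, a log2 fold change of 0.15 (SE 0.0531, 95% interval 0.03 to 0.28) that did not pass the threshold after adjustment (unadjusted *p* = 0.0205, adjusted *p* = 0.0634 by limma). It passed with the FPKM as deposited (0.31, adjusted *p* = 0.00389) and with quantile normalization (0.21, adjusted *p* = 0.0320), both by limma.

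The gene *ypt1* (TRIREDRAFT_80898, from 195597 to 197195) encodes the Rab GTPase that directs ER-derived vesicles to the Golgi. It was the most abundant of the 8 transcripts in both strains, at 679, 712 and 686 FPKM in Δ*gul1* and 503, 502 and 500.2 FPKM in QPP. The lowest Δ*gul1* library was far above the QPP libraries, which were nearly equal. The mean was 692 ± 17.7 FPKM in Δ*gul1* and 502 ± 1.24 FPKM in QPP (SD, n = 3 each). Between 13291 and 14816 fragments lay behind each Δ*gul1* value and between 9981 and 11489 behind each QPP value. The transcript rose by a log2 fold change of 0.31 (SE 0.0554, 95% interval 0.18 to 0.43, adjusted *p* = 0.00532 by limma), a scaled level 23.6% higher in Δ*gul1*. With the FPKM as deposited the log2 fold change was 0.46 (adjusted *p* = 0.000599, limma).

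The gene *snc1* (TRIREDRAFT_53601, from 3054250 to 3054924) encodes the SNARE carried by secretory vesicles, a synaptobrevin. Its level was 593, 609 and 649 FPKM in Δ*gul1* and 429, 461 and 432 FPKM in QPP. The gap between the strains was wider than the range within either of them. The mean was 617 ± 29.0 FPKM in Δ*gul1* and 441 ± 17.5 FPKM in QPP (SD, n = 3 each). The log2 fold change of 0.33 (SE 0.0568, 95% interval 0.19 to 0.46, adjusted *p* = 0.00444 by limma) was the highest of the 8 genes, a scaled level 25.4% higher in Δ*gul1*. With the FPKM as deposited it was 0.48 (adjusted *p* = 0.000877, limma). Both *snc1* and *ypt1* kept their call under all 15 alternatives tried, with log2 fold changes of 0.30 to 0.48 for *snc1* and 0.28 to 0.46 for *ypt1*.

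The gene *sso1* (TRIREDRAFT_63754, from 534980 to 536224) encodes a SNARE of the plasma membrane, the side on which the vesicle SNARE pairs. Its level was 260, 263 and 250 FPKM in Δ*gul1* and 262, 254 and 251 FPKM in QPP. These values overlapped as deposited, with means of 258 ± 7.22 FPKM in Δ*gul1* and 256 ± 5.76 FPKM in QPP (SD, n = 3 each). After scaling, all Δ*gul1* libraries were below all QPP libraries, at 248, 249 and 233 in Δ*gul1* and 282, 263 and 265 in QPP. The log2 fold change was −0.15 (SE 0.0552, 95% interval −0.27 to −0.02, unadjusted *p* = 0.0303, adjusted *p* = 0.0849 by limma) after scaling and 0.01 with the FPKM as deposited (adjusted *p* = 0.875, limma). With upper quartile scaling it was −0.17 (adjusted *p* = 0.0446, limma).

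**Figure D2:**
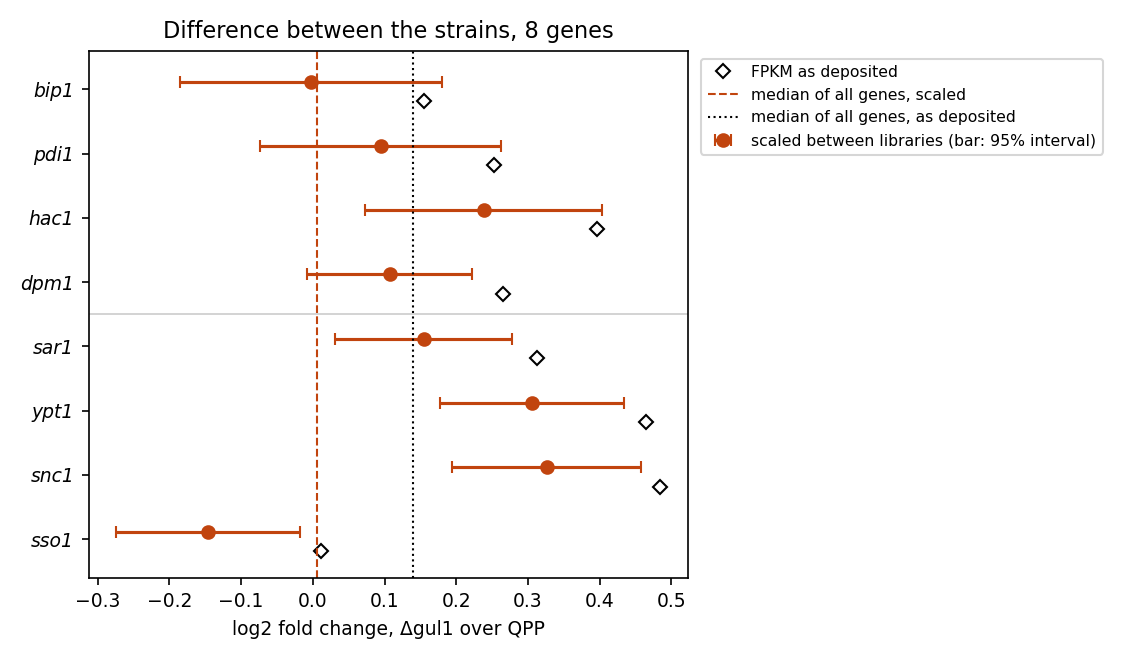
Log2 fold change of each gene, Δ*gul1* over QPP. Filled points with 95% intervals are the limma values after scaling between libraries, open diamonds the values with the FPKM as deposited, and the vertical lines mark the median of all 9006 genes on either scale. The scaled values of *snc1* (0.33), *ypt1* (0.31) and *hac1* (0.24) are the highest and that of *sso1* (−0.15) is the lowest.

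After scaling, the Δ*gul1* and QPP libraries were fully apart for 6 of the 8 genes, 5 higher and 1 (*sso1*) lower in Δ*gul1*. Over all genes tested, 45.0% were apart in this way, 22.3% as higher and 22.7% as lower. With the FPKM as deposited, 6 of the 8 were apart as higher and 0 as lower, against 40.0% and 11.8% of all genes. The 4 folding genes had a median log2 fold change of 0.10 and the 4 traffic genes of 0.23. Summed, the folding genes reached 1282, 1408 and 1342 FPKM in Δ*gul1* and 1146, 1148 and 1063 FPKM in QPP, while the traffic genes reached 2008, 2076 and 2100.2 FPKM in Δ*gul1* and 1592, 1614 and 1580 FPKM in QPP. The scaled sums were 1.08 times as high in Δ*gul1* as in QPP for folding and 1.16 times for traffic. For folding they were 1270 ± 56.6 in Δ*gul1* and 1181 ± 54.7 in QPP (SD, n = 3 each). For traffic they were 1949 ± 28.1 in Δ*gul1* and 1684 ± 22.7 in QPP (SD, n = 3 each). All 8 transcripts together took 0.353 to 0.399% of the summed FPKM of a Δ*gul1* library and 0.299 to 0.323% of that of a QPP library. Their scaled sum was 1.12 times as high in Δ*gul1* as in QPP.

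A ratio of 2 genes within a library is not changed by a single scaling factor per library, so 6 such ratios were taken. They were chosen after the values were known, with the gene of the higher log2 fold change on top, which fixes their direction, so they are a description with no test. The ratio of the vesicle SNARE transcript to that of the plasma membrane SNARE, *snc1* to *sso1*, was 2.28, 2.31 and 2.60 in the Δ*gul1* libraries and 1.63, 1.82 and 1.72 in the QPP libraries. The strains did not overlap, and the log2 difference was 0.47 (SE 0.0749). For *ypt1* to *sso1*, the ratio was 2.69 ± 0.0726 in Δ*gul1* and 1.96 ± 0.0397 in QPP (SD, n = 3 each), a log2 difference of 0.45. The Rab to COPII GTPase ratio, *ypt1* to *sar1*, was 1.42, 1.45 and 1.33 in Δ*gul1* and 1.26, 1.26 and 1.26 in QPP. Within the folding genes, *hac1* to *bip1* was 0.993, 1.04 and 1.09 in Δ*gul1* and 0.810, 0.857 and 0.981 in QPP, so that the highest QPP library came near the lowest Δ*gul1* library. The ratio of *pdi1* to *bip1* was 1.84 ± 0.0634 in Δ*gul1* and 1.72 ± 0.0978 in QPP (SD, n = 3 each), with a log2 difference of 0.10 (SE 0.0560). For *snc1* to *bip1* it was 2.01 ± 0.138 in Δ*gul1* and 1.602 ± 0.123 in QPP (SD, n = 3 each). Of all 28 pairs of the 8 genes, the ratios of 16 were apart between the Δ*gul1* and QPP libraries, the 6 described here among them. The share among pairs of all genes was not computed, so this count is not a result about these genes.

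**Figure D3:**
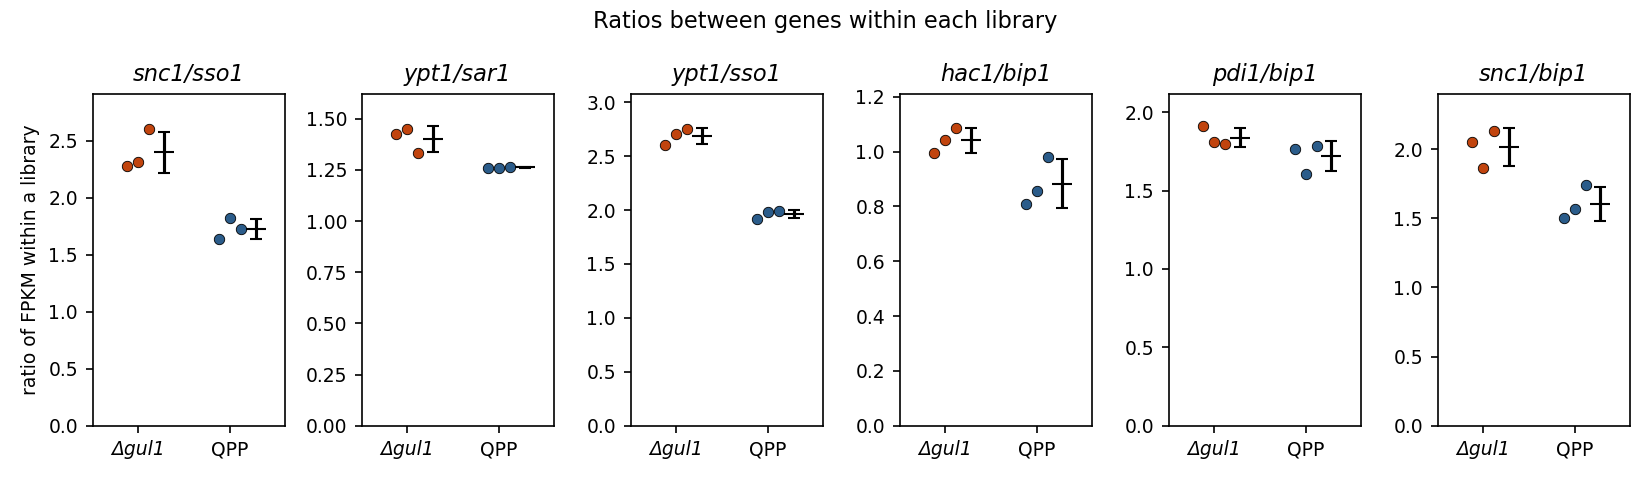
Ratio of the FPKM of 2 genes within each library, for 6 pairs, with Δ*gul1* left and QPP right. Points are libraries and the bar beside them is mean ± SD. The ratio of *snc1* to *sso1* is 2.28 or more in Δ*gul1* and 1.82 or less in QPP, while the strains lie close for *pdi1* to *bip1*.

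All 8 genes belonged to the abundant transcripts of these cultures. In mean FPKM, *ypt1* ranked 139 of 9006 genes in Δ*gul1* and 211 in QPP, and *dpm1*, the lowest of the 8, ranked 998 in Δ*gul1* and 1105 in QPP. Among the 1582 genes whose mean reached 100 FPKM, 17.6% rose and 20.4% fell by the same limma test. From high to low, the order in Δ*gul1* was *ypt1*, *snc1*, *pdi1*, *sar1*, *hac1*, *bip1*, *sso1*, *dpm1*, and of these neighbours only *hac1* and *bip1* overlapped in their libraries. In QPP the order was *ypt1*, *pdi1*, *snc1*, *sar1*, *bip1*, *sso1*, *hac1*, *dpm1*, where *ypt1* overlapped *pdi1*, *pdi1* overlapped *snc1*, *bip1* overlapped *sso1* and *sso1* overlapped *hac1*. In mean FPKM, the places of *snc1* and *pdi1* were exchanged between the strains. The mean of *hac1* stood above those of *bip1* and *sso1* in Δ*gul1* and below both in QPP. The libraries of *hac1* and *bip1* overlapped in QPP as well as in Δ*gul1*.

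The spread between libraries of a strain differed among the genes. In QPP, the coefficient of variation of the deposited FPKM was 0.246% for *ypt1*, 0.372% for *sar1* and 0.548% for *dpm1*, all less than the counting error expected at their fragment numbers, which is 0.967%, 1.48% and 2.02%. After scaling it was 1.88% for *ypt1* and 1.86% for *sar1*, above their counting error, and 1.28% for *dpm1*, still below it. The limma fit, made on the scaled values, draws each gene's variance towards that of genes of like level. As deposited, the coefficient was 8.79% for *bip1*, 6.34% for *pdi1*, 4.50% for *hac1*, 3.98% for *snc1* and 2.25% for *sso1* in QPP, against a median of 6.11% over the 6677 genes whose mean reached 10 FPKM. In Δ*gul1* the coefficient lay between 2.55% for *ypt1* and 9.08% for *hac1*, with a median of 6.91% over those genes.

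The table gives a symbol to few other genes of this pathway. A group of 6 was drawn up from these symbols: *ire1*, named as the ER stress sensor upstream of Hac1, *ptc2*, whose homologue in yeast is a phosphatase that dampens this response, *pmt1* for protein O-mannosylation, *mpg1* for GDP-mannose synthesis, the SNARE regulator *sec1*, and *nsf1*, named like the ATPase that takes SNARE complexes apart. Of the 6, 0 rose and 0 fell by the limma test, against 29.6% of all genes that passed it, and 0 had an unadjusted *p* under 0.05, against 41.0% of all genes. These counts describe the 6 genes named and not the pathway. Their log2 fold changes lay between −0.13 (*pmt1*) and 0.10 (*sec1*), with a median of 0.04. The transcript of *ire1* was at 125 ± 3.85 FPKM in Δ*gul1* and 107 ± 6.67 FPKM in QPP (SD, n = 3 each), a log2 fold change of 0.07 (limma adjusted *p* = 0.476, SE 0.0629). That of *sec1* was at 60.1 ± 1.04 FPKM in Δ*gul1* and 50.2 ± 0.990 FPKM in QPP (limma adjusted *p* = 0.221 for a log2 fold change of 0.10). With the FPKM as deposited, 3 of the 6 rose by the same test (*ire1*, *mpg1* and *sec1*) and 0 fell, where 30.0% of all genes rose and 8.28% fell.

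**Figure D4:**
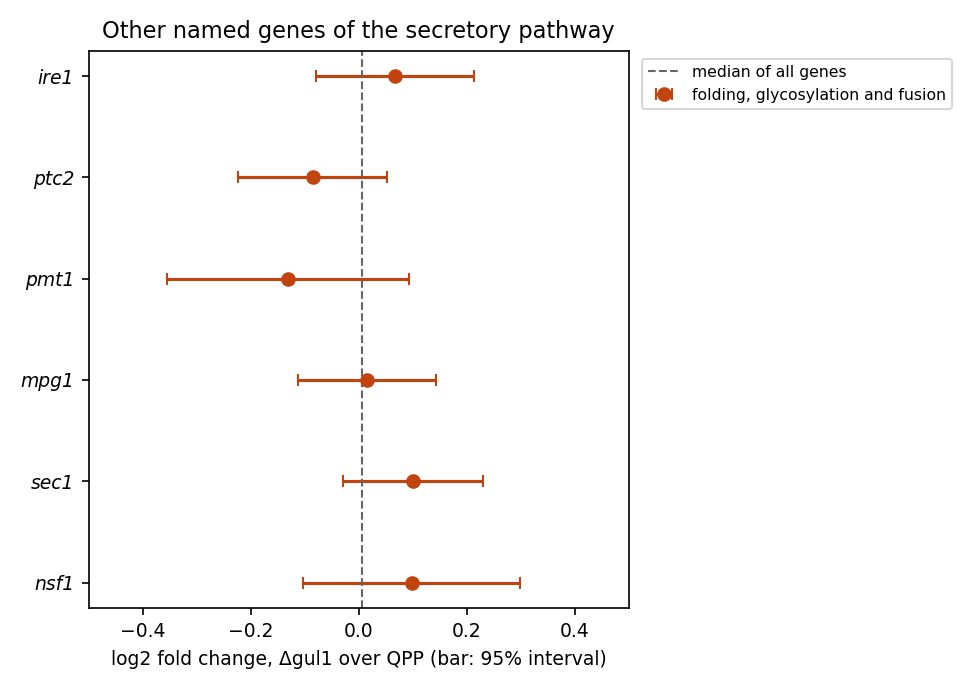
Log2 fold change, Δ*gul1* over QPP, of 6 other genes of secretion that the table lists by symbol. Points are limma values after scaling, bars are 95% intervals and the dashed line is the median of all genes. The values lie between −0.13 (*pmt1*) and 0.10 (*sec1*), and each interval includes 0.

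The genes whose pattern over the 6 libraries was most like that of 1 folding and 1 traffic gene were looked up among the 6676 other genes whose mean reached 10 FPKM, by Pearson's r of log2 scaled FPKM plus 1, as a description only. For *bip1* these were TRIREDRAFT_76705 (r = 0.991, Spearman's coefficient 0.943), TRIREDRAFT_120627 (r = 0.970, Spearman's coefficient 0.943) and TRIREDRAFT_62305 (r = 0.966, Spearman's coefficient 1). Like *bip1*, these had log2 fold changes near 0, from −0.02 to −0.01, and TRIREDRAFT_76705 was at 37.8 ± 2.90 FPKM in Δ*gul1* and 34.1 ± 3.84 FPKM in QPP (SD, n = 3 each). For *sso1* they were TRIREDRAFT_120799 (r = 0.996, Spearman's coefficient 0.943), TRIREDRAFT_109285 (r = 0.994, Spearman's coefficient 0.943) and TRIREDRAFT_57632 (r = 0.993, Spearman's coefficient 1), with log2 fold changes of −0.18, −0.56 and −0.36. With 6 libraries that share their scaling, the highest of 6676 coefficients is high in any case. The likeness of the fold changes follows from this choice of genes and is not a separate result.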

How the data were processed

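RNA-seq of 3 Δ*gul1* and 3 QPP cultures was used. After cleaning, paired reads were mapped by the authors with HISAT2 to the assembly of *T. reesei* QM6a, and fragments per gene were counted with HTSeq (versions and use of strand not given in the sources used here). The authors deposited FPKM, 1 column per library. Cutadapt is also named in the submitters' processing notes. Without known strand use, overlapping genes cannot be told apart.

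Libraries were brought to 1 scale by median-of-ratios size factors, and a pseudocount of 1 was added before the log2. The limma fit (version 3.58.1, R 4.3.3, eBayes with a trend) held the 9006 genes with a value above 0 in any library and strain as its single term, with Benjamini-Hochberg adjustment over all genes. The thresholds of the study's methods (DESeq on counts) were applied to this fit, since FPKM are not counts.

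Library totals and fragments per gene were recovered from the FPKM. The total of a library is the value to which the most genes led, 334 to 356 of them. For 9002 genes, a length up to the gene's extent on its scaffold then gave whole fragments in every library (tolerance 0.001). For *snc1*, 5 gene lengths are possible, so its fragments are an upper bound and are not given. Counting error assumes independent fragments.

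The genes and lists were chosen with earlier results of these data known. All 8 genes found were to be named. The planned lists of other pathway genes by description could not be drawn, as the gene table holds symbols only and the search words matched only *sec1*. The group of 6, picked from symbols after the table had been seen, replaced them, and some genes picked with it are not reported here. The same-numbered libraries were not paired. Python 3.11.15 with scipy 1.17.1, pandas 2.3.3 and numpy 2.4.6 was used for the other values. Sequences and protein comparisons are not used here.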

Additional observations from a re-analysis of the deposited data

How the results depend on the processing

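The alternatives were quantile normalization, the FPKM as deposited, a replicate block, no trend, scaling by the upper quartile, a mean of 1 FPKM or more, pseudocounts of 0.01 and 0.1, each library left out, and, added after seeing the data, voom on the recovered fragments. With the FPKM as deposited, log2 fold changes were 0.16 for *bip1* and 0.012 for *sso1*, both of the opposite sign, and 0.25 for *pdi1*, 0.27 for *dpm1* and 0.31 for *sar1*, all past the threshold. The 8 genes then gave 6 calls, and all genes 2704 higher and 746 lower, in place of 1309 and 1354. With quantile normalization they were 0.0048 for *bip1*, 0.21 for *sar1* (now past the threshold) and 0.25 for *hac1* (no longer past it). With upper quartile scaling *sso1* was past it (−0.17), the 1 gene of the 8 to fall under any alternative, and *hac1* was not (0.22). Without a trend *hac1* (0.24) was not either. With each library left out, *bip1* lay between −0.078 and 0.034 and *hac1* between 0.19 and 0.31. Genes past the study's thresholds as higher were 289 and 314 with pseudocounts of 0.1 and 0.01 and 317 with voom, in place of 168. The cause of these moves was not tested beyond the construction of each alternative. The deviations of same-numbered libraries had correlations of −0.09, 0.16 and 0.32 for numbers 1 to 3. Those of differently numbered libraries lay between −0.40 (Δ*gul1* 2 with QPP 3) and 0.30 (Δ*gul1* 2 with QPP 1). A pairing by number was therefore not shown. With the replicate block, log2 fold changes were the same, 0.33 for *snc1*, 0.31 for *ypt1* and 0.24 for *hac1*, and none of the 8 genes changed its call. At the mean fragments of a strain, the counting error set by depth was at most 2.02% for the 7 genes other than *snc1*. The fragments of *snc1* are known only as an upper bound.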
